A study of Mus musculus with 14 samples.

Results

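The contractile genes of smooth muscle type were followed in primary fibroblasts of mouse embryos (MEFs) in the first days of reprogramming. The 10 genes were Acta2, Acta1, Actg2, Tagln, Cnn1, Myl9, Tpm1, Tpm2, Cald1 and Des, out of 19938 genes measured. A gene was taken from the probes whose annotation gives its symbol alone, and each of the 10 had 1 such probe. Retroviruses brought Sox2, Klf4 and Oct4 (together SKO), the 3 reprogramming factors, into the MEFs, or only green fluorescent protein (GFP) into the controls. On day 2 both kinds of cell were moved to stem cell medium containing the cytokine LIF, and vitamin C at 50 µg/ml was either present from then on or left out. Lysates of SKO cells were made 3, 4, 5, 6, 8 and 10 days after infection, those of GFP cells on day 3. Each condition and day gave 1 array: 6 of treated and 6 of untreated SKO cells, and 1 of GFP cells under each treatment, 14 in all. Mouse strain, embryo age and the share of cells that took up the viruses were not given in the sources used here. A GFP array exists for day 3 alone, so the later days have no control of their own age in culture.

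Smooth muscle cells contract when myosin pulls on actin filaments that are anchored in the membrane and in dense bodies. The actin filament is built from alpha or gamma actin, is coated by tropomyosin, and carries caldesmon, calponin and transgelin, while phosphorylation of the regulatory light chain switches the myosin on. Fibroblasts that are stretched, plated on stiff plastic or exposed to TGF-beta take up much of this set and are then called myofibroblasts, with Acta2 as the usual marker. Many of these genes are targets of serum response factor (SRF), which binds a DNA element called the CArG box together with the cofactors MRTF-A, MRTF-B or myocardin. TEAD factors bind another element, the MCAT box, in some of the same promoters. Fibroblasts lose mesenchymal genes and gain epithelial ones early in reprogramming.

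The promoters of 4 of the genes are shown. Acta1, Myl9 and Acta2 held elements this set is known for, or near matches to them, in the window searched. Cnn1, the gene with the largest fall, held none there. The sequences are RefSeq's for mouse assembly GRCm38.p6, 250 bases up to the transcription start, written 5′ to 3′ along the gene's strand. Capitals mark CArG boxes and CArG boxes with 1 mismatch.
Acta1 promoter, chr8:123894776-123895025, minus strand: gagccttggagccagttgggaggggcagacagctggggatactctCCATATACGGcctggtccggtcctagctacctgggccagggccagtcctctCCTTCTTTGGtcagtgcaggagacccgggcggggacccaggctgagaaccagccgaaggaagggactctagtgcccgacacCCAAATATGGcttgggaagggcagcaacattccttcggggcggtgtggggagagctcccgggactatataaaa
Myl9 promoter, chr2:156775214-156775463, plus strand: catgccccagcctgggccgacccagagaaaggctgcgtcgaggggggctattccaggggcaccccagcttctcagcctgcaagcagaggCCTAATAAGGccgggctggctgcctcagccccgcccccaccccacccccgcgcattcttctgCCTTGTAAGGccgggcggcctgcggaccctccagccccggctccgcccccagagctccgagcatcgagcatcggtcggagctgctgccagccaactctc
Acta2 promoter, chr19:34255374-34255623, minus strand: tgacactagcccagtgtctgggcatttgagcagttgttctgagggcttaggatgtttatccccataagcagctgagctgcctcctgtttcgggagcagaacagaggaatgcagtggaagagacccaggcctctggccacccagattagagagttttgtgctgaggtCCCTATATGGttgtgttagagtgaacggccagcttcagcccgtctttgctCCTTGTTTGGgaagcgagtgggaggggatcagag
Cnn1 promoter, chr9:22099003-22099252, plus strand: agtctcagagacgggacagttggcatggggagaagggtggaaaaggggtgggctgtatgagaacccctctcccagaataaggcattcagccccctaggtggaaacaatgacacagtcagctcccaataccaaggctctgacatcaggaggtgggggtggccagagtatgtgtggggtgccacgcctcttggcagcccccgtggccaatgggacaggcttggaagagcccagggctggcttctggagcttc
A whole CArG box lay in the windows of 2 of the 8 genes that had one in the table, Acta1 (73 to 64 bases before the start) and Myl9 (161 to 152). These were 2 of the 9 windows of the 8 genes, and over all 32851 windows of this length 1.47% held one on either strand. A CArG box with exactly 1 mismatch was found for 5 of the 8 genes (Acta1, Myl9, Acta2, Tpm1 and Cald1). That made 5 of the 9 windows, against 17.5% of all windows. In Acta2, the alpha actin of vascular smooth muscle, the matches lay 84 to 75 and 34 to 25 bases before the start. The MCAT box, searched as CATTCC on both strands, was found for 4 of the 8 genes (Acta1, Acta2, Tpm1 and Cald1). That made 4 of the 9 windows, against 12.6% of all windows, and no motif match overlapped another. Cnn1, Tpm2 and Des held no match to these motifs in their windows, and Tagln and Actg2 had no window in the table. Sequence outside the windows was not searched, so elements there are not covered.

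Values are log2 signals from Affymetrix whole-transcript arrays, so a difference of 1 is a factor of 2 in signal. The array medians lay between 5.19 and 5.28. None of the 10 genes was among the 6646 genes of lowest mean signal (below 4.54). Fibroblast collagens were high on every array: Col1a1 ranged from 11.58 to 13.05 and Col1a2 from 12.07 to 12.71. Earlier work on these data showed that days 3, 5 and 10 stand apart from days 4, 6 and 8 over many genes, with the GFP arrays on the side of the latter. Comparisons are therefore also given within each set of days. With 1 array per condition and day, the spread behind the p-values is how much the difference between treated and untreated arrays varied from day to day. In comparisons between days, the treated and untreated arrays of a day thus stand in for replicates. The p-values say nothing about independent cultures.

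All 10 contractile genes fell in the SKO cells between day 3 and day 10. The falls went from 1.93-fold in Cald1 to 7.47-fold in Cnn1, with a median log2 difference of −1.63, against −0.02 over all genes. Of all genes, 5.64% fell and 6.55% rose by the same test (limma over the 12 SKO arrays, adjusted p under 0.05). Earlier results that named several of these genes were known when the set was chosen, so the count is a description of the set. In RNA of a whole culture, fewer cells of a type and less RNA per cell cannot be told apart.

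**Figure D1:**
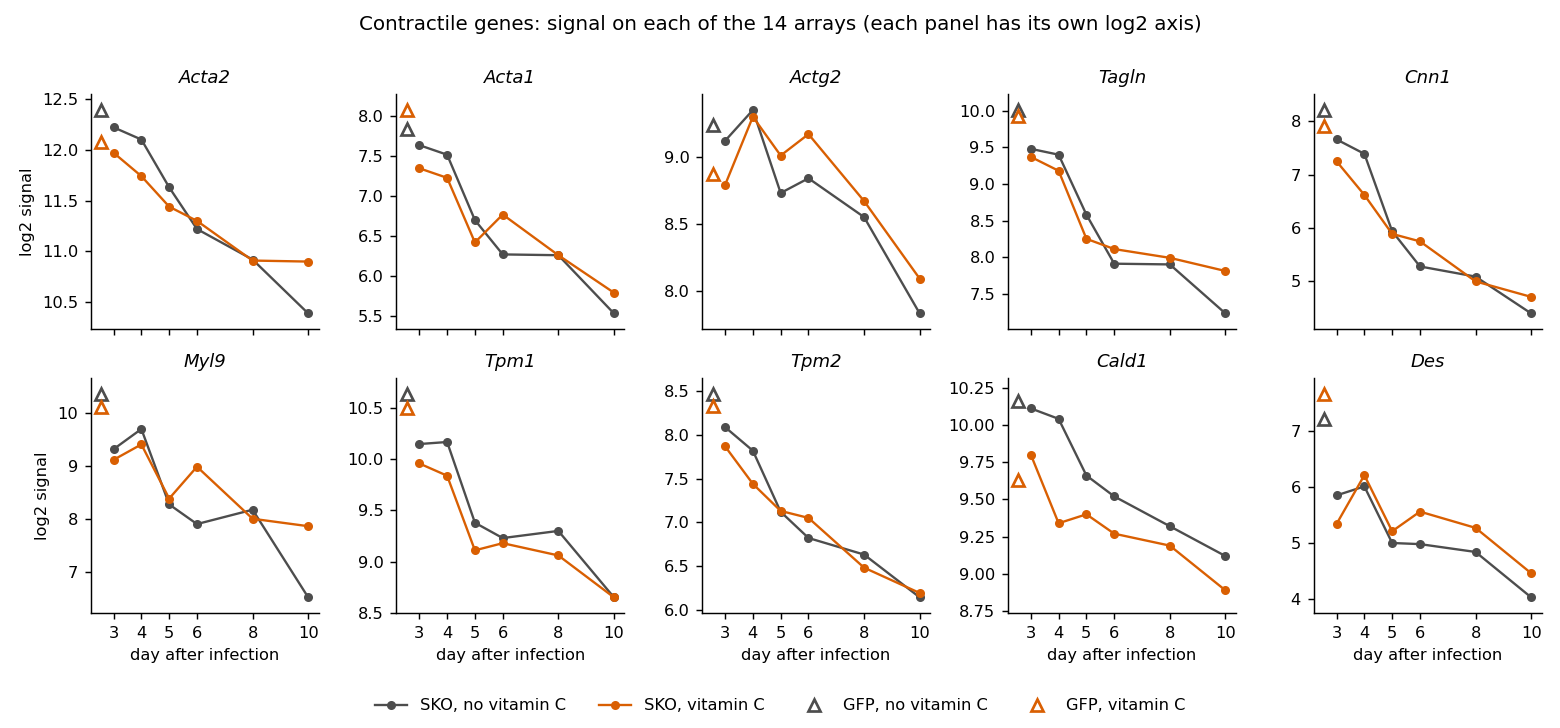
Log2 signal of each of the 10 genes against the day after infection, 1 point per array; lines join the 6 SKO arrays with vitamin C (orange) and the 6 without (grey), and triangles are the GFP arrays of day 3, set to the left of the SKO points. Every gene has its lowest SKO value on day 10 in both arms, and Des has its GFP values (7.66 and 7.22) far above every SKO value.

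The actins of the contractile filament come first. Acta2 gave 12.22 on day 3 without vitamin C, then 12.10, 11.63, 11.22, 10.92 and 10.39 on days 4, 5, 6, 8 and 10. With vitamin C the same days gave 11.97, 11.74, 11.44, 11.30, 10.91 and 10.90. The signal was lower on each day than on the one before in both arms, and the days 3 and 10 did not overlap. The fall to day 10 was −1.45 ± 0.20 (SE) on the log2 scale, or 2.73-fold (adjusted p = 0.000602). Acta1, the alpha actin of skeletal muscle, had its highest value on day 3 and its lowest on day 10 in both arms. Its lowest, median and highest values were 5.53, 6.48 and 7.64 without vitamin C and 5.79, 6.60 and 7.35 with it. It fell by 3.57-fold, a log2 difference of −1.84 ± 0.21 (adjusted p = 0.000175). Actg2, the gamma actin of visceral smooth muscle, took another course. It peaked on day 4 in both arms, at 9.35 without and 9.30 with vitamin C, and still stood at 8.84 and 9.17 on day 6. Its low values came late, at 7.83 and 8.09 on day 10. The difference from day 3 was −0.99 ± 0.18 (adjusted p = 0.00337), and from day 4 it was −1.36 ± 0.18 (adjusted p = 0.000684). The coding sequences of the actins are nearly alike, and probes that respond to more than 1 of them were not looked for here.

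Of the proteins bound along the actin filament, Cnn1 (calponin, an inhibitor of the actin-activated myosin) fell most. It gave 7.66, 7.39, 5.94, 5.28, 5.09 and 4.40 on days 3, 4, 5, 6, 8 and 10 without vitamin C. With vitamin C it gave 7.25, 6.62, 5.89, 5.75, 5.00 and 4.71. Both arms dropped on every step, and the day 10 values (4.40 and 4.71) lay near the 4.54 that bounds the genes of lowest signal, so the fold may be understated. The log2 difference was −2.90 ± 0.25 (adjusted p = 3.2e-05). Tagln (transgelin, an actin cross-linker) gave 9.48, 9.40, 8.58, 7.91, 7.90 and 7.23 without vitamin C, and 9.37, 9.18, 8.25, 8.11, 7.99 and 7.81 with it. Most of its fall was over by day 6, and the total was 3.75-fold (−1.91 ± 0.20, adjusted p = 0.000129).

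The tropomyosins, which lie in the groove of the filament and gate the access of myosin, fell in both genes. Tpm1 had lowest, median and highest values of 8.65, 9.34 and 10.17 without vitamin C, and of 8.65, 9.14 and 9.96 with it. Tpm2 had 6.14, 6.97 and 8.09 without and 6.19, 7.09 and 7.87 with it. The arms met on day 10 in both genes. Tpm1 fell by 2.65-fold (−1.40 ± 0.14, adjusted p = 0.000107) and Tpm2 by 3.52-fold (−1.82 ± 0.17, adjusted p = 4.73e-05). Cald1 (caldesmon, which holds back the myosin interaction and also has a form outside muscle) had the smallest difference. It went from 10.11 on day 3 to 9.12 on day 10 without vitamin C, and from 9.80 to 8.89 with it. The log2 difference was −0.95 ± 0.16 (adjusted p = 0.00251).

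Myl9, the regulatory light chain of smooth muscle myosin, varied most between the arms. Without vitamin C it gave 9.31, 9.69, 8.27, 7.90, 8.17 and 6.52 over the 6 days, and with vitamin C 9.11, 9.40, 8.38, 8.98, 8.00 and 7.86. The treated cells kept about their day 8 value on day 10, and the untreated cells dropped. The difference from day 3 to day 10 was −2.02 ± 0.36 (4.06-fold, adjusted p = 0.0031), with the widest error of the 10 genes. Des (desmin, the intermediate filament protein of muscle) gave 5.85, 6.01, 5.00, 4.98, 4.84 and 4.03 without vitamin C. With vitamin C it gave 5.34, 6.21, 5.21, 5.56, 5.27 and 4.46. Day 4 was the highest in both arms and day 10 the lowest, a fall of −1.35 ± 0.22 from day 3 (adjusted p = 0.00205) and of −1.87 ± 0.22 from day 4 (adjusted p = 0.000487). Both day 10 values lay below 4.54, so these folds too may be understated.

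**Figure D2:**
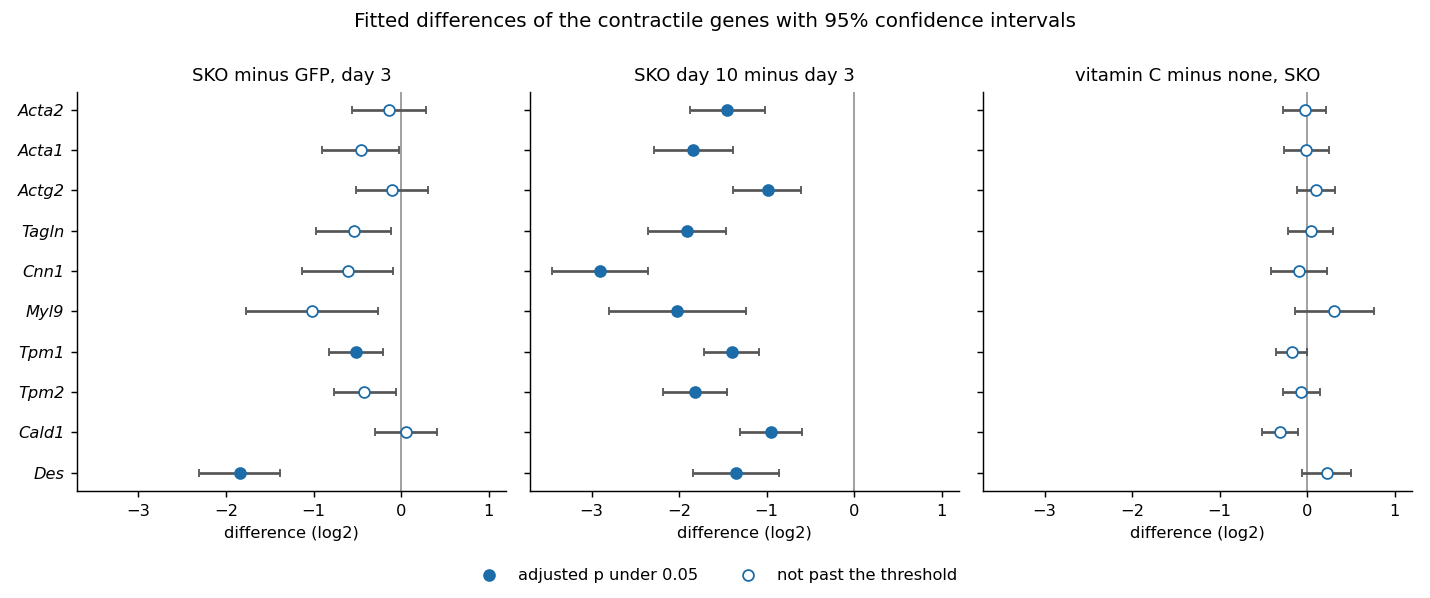
Fitted log2 difference of each gene (points) with its 95% confidence interval (bars) for SKO minus GFP on day 3, SKO day 10 minus day 3, and with minus without vitamin C in SKO cells; filled points have an adjusted p under 0.05. All 10 points are filled for day 10, 2 (Tpm1 and Des) for SKO against GFP, and none for vitamin C.

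Within each set of days part of the genes passed. Between days 3 and 5, 4 of the 10 genes were lower past the threshold, against 0.281% of all genes: Cnn1 (−1.54, adjusted p = 0.0111), Tagln (−1.01, 0.0347), Tpm2 (−0.85, 0.0298) and Tpm1 (−0.81, 0.0186). Acta1 (−0.94) was just outside it, with an adjusted p of 0.0505, and Actg2 differed by −0.08. Between days 5 and 10 again 4 genes were lower, against 0.517% of all genes: Cnn1 (−1.36, adjusted p = 0.0224), Tpm2 (−0.96, 0.0178), Actg2 (−0.91, 0.0285) and Acta2 (−0.89, 0.0479). Cnn1 and Tpm2 passed in both steps. Between days 4 and 8, 7 genes were lower, against 0.492% of all genes, and Actg2, Myl9 and Cald1 did not pass. Cnn1 fell by 3.90-fold there (adjusted p = 0.00295) and Tagln by 2.54-fold (adjusted p = 0.00631). With array weights 4 genes passed there, and a test over days 4, 6 and 8 alone called 3 of 10. From day 4 to day 10, which crosses the sets, all 10 were lower, against 8.11% of all genes. A test over all 6 days called all 10 genes, against 18.9% of all genes, with adjusted p between 0.000187 and 0.0144.

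Between neighbouring days, calls came in the step from day 4 to day 5 alone. There 5 of the 10 genes fell, against 3.83% of all genes: Tpm1 (−0.76), Des (−1.01), Cnn1 (−1.09), Tagln (−0.88) and Acta1 (−0.81). Myl9 differed by −1.22 with an adjusted p of 0.0611. No member passed between days 3 and 4 (3.94% of all genes lower), days 5 and 6 (0.607% lower) or days 8 and 10 (2.20% lower). Des was higher on day 4 than on day 3 by 0.52 (adjusted p = 0.178). Between days 6 and 8 none of the 19938 genes passed. All 10 members were lower on day 10 than on day 8, with a median of −0.51, where 46.5% of all genes were lower. The lowest adjusted p of that step was 0.0701, for Tpm1.

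The step from day 4 to day 5 also crosses from 1 set of days to the other. A contrast over days 3 to 6 that is 0 for a straight line was formed from the drop from day 4 to day 5, with 3 times the weight, and the difference of day 6 minus day 3. It is positive for an alternation, and also for a single drop after day 4, so it does not tell them apart. It was above 0 for 9 of the 10 genes, with a median of 0.34 against 0.02 over all genes. Only Des passed the threshold among them (0.68 ± 0.18, adjusted p = 0.0287), and 6.53% of all genes were higher by this contrast. Myl9 gave 0.72 (adjusted p = 0.119), and Acta2 0.08 (0.797). For Tagln (0.31) the means of days 3 to 6 were 9.42, 9.29, 8.41 and 8.01, which fall without alternating. For Des they were 5.59, 6.11, 5.10 and 5.27, which alternate. The part of the alternation in the step from day 4 to day 5 was not tested.

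On day 3 the SKO cells were below the GFP cells in Des and Tpm1, and the other 8 genes did not pass the test. Des was 7.66 and 7.22 on the GFP arrays with and without vitamin C, and 5.34 and 5.85 on the SKO arrays of day 3. The difference was −1.84 ± 0.22, or 3.59-fold (adjusted p = 0.000107). Tpm1 (10.50 and 10.64 in GFP cells, 9.96 and 10.15 in SKO cells) was lower by −0.52 ± 0.15 (adjusted p = 0.0252). These were the 2 called genes of 10, against 8.43% of all genes called lower. Des passed in all 18 alternative settings, between −2.29 and −1.33. Tpm1 lost its call without each of the 4 day 3 arrays in turn (adjusted p between 0.0717 and 0.146) and in a fit of those 4 arrays alone (0.0536).

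Among the members that did not pass, the differences ran from −1.02 (Myl9) to 0.06 (Cald1). Myl9 was 10.10 and 10.35 in GFP cells with and without vitamin C, and 9.11 and 9.31 in SKO cells, with no overlap. Its difference of −1.02 ± 0.35 had an adjusted p of 0.0611. Cnn1 (−0.61), Tagln (−0.54), Acta1 (−0.46) and Tpm2 (−0.42) had adjusted p between 0.0745 and 0.145. Acta2 (−0.14), Actg2 (−0.10) and Cald1 (0.06) had intervals that included 0, from −0.56 to 0.28 for Acta2. The 95% intervals of Myl9, Cnn1, Tagln, Acta1 and Tpm2 lay below 0. In all, 9 of 10 differences were below 0, where 54.3% of all genes were. Their median was −0.49, against −0.04 over all genes. With SKO day 4, which is in the same set of days as the GFP arrays, in place of day 3, 4 genes were lower (2.90% of all genes): Des (−1.33), Cnn1 (−1.06), Tpm2 (−0.77) and Tpm1 (−0.57).

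Vitamin C left no call in the set. Over the 6 days, 0 of 10 genes passed by limma, against 0.933% of all genes in either direction. Cald1 had the lowest p-value of the 10. It was lower with vitamin C on 6 of 6 days, with a difference of −0.31 ± 0.09 (95% interval −0.52 to −0.11, adjusted p = 0.181). Its values without vitamin C were 10.11, 10.04, 9.66, 9.52, 9.32 and 9.12, and with it 9.80, 9.34, 9.40, 9.27, 9.19 and 8.89. Cald1 was also lower with vitamin C in the GFP cells, 9.63 against 10.16. Tpm1 gave −0.18 (−0.36 to 0.00), Des 0.22 (−0.06 to 0.50) and Myl9 0.31 (−0.14 to 0.76). For Acta2 the interval of −0.28 to 0.21 and for Acta1 that of −0.27 to 0.25 bound the mean difference, which changed sign in some alternatives for both genes.

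**Figure D3:**
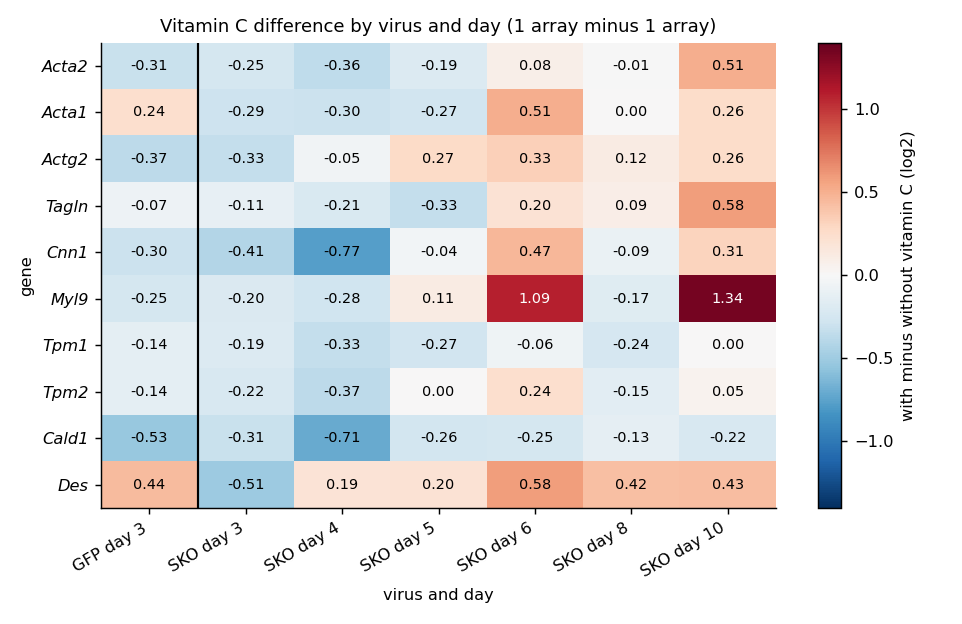
Log2 difference with minus without vitamin C for each gene (rows), in the GFP pair of day 3 and in the SKO pair of each day (columns), each from 1 array minus 1 array; red is higher with vitamin C and blue lower. All 10 genes are lower with vitamin C in SKO cells on day 3 and 8 are higher on day 10, with Myl9 at 1.34.

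The mean over days covers daily differences of both signs. On day 3 all 10 genes were lower with vitamin C in SKO cells (median −0.27; 48.9% of all genes were lower), and on day 4 it was 9 of 10 (median −0.32; 48.5%). Day 5 had 6 lower and 3 higher (median −0.12; 51.3% of all genes lower). On day 6, 8 of 10 were higher (median 0.29; 47.5% of all genes were higher). Day 8 had 6 lower and 3 higher (median −0.05; 53.7% of all genes lower), and on day 10, 8 were higher (median 0.29; 50.3% of all genes higher). The largest daily values were those of Myl9, 1.09 on day 6 and 1.34 on day 10, and of Cnn1, −0.77 on day 4. In GFP cells 8 of 10 were lower with vitamin C (median −0.20; 48% of all genes were lower). Each of these is 1 array against 1, and members on 1 array share its error.

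The same values can be read as the fall within each arm. From day 3 to day 10 the untreated cells fell further than the treated cells in 10 of 10 genes, where 49% of all genes had the lower difference without vitamin C. The median log2 fall was −1.89 without and −1.28 with vitamin C. Myl9 fell by 2.79 without and by 1.25 with it, Cnn1 by 3.26 and 2.54, Des by 1.82 and 0.88, Tagln by 2.25 and 1.56, and Acta2 by 1.83 and 1.07. Cald1 (−0.99 and −0.91) and Tpm1 (−1.50 and −1.31) were close in both arms. This was tested as a slope over days of the difference between the arms. The slope was above 0 in 10 of 10 genes with a median of 0.09 per day, where 47.8% of all genes were above 0. None passed limma's threshold (0.0351% of all genes did). The lowest p-values were those of Acta2 (0.11 ± 0.04, adjusted p = 0.486) and Tagln (0.11 ± 0.04, adjusted p = 0.537). Without adjustment, limma's p for the slope was 0.013 for Acta2, 0.0209 for Tagln, 0.0276 for Myl9 and 0.0463 for Des. For the other members it was 0.0517 or more. The vitamin C difference in GFP cells minus that in SKO cells gave 0 calls among the members and among all genes (0% called) and 0 members with an unadjusted p under 0.05.

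Fewer calls were made among other genes of the smooth muscle programme. Of 15 further markers measured, 4 fell and 1 rose between day 3 and day 10 (5.64% and 6.55% of all genes), with a median of −0.21. Their mean signal in SKO cells on day 3 was 5.59 without and 5.61 with vitamin C. The contractile genes had 8.96 and 8.68 there. Weak signals leave less room for a fall, so a missing call does not show that the level held. Myh11, the smooth muscle myosin heavy chain, gave 6.13, 5.91, 5.23, 4.70, 4.77 and 4.29 without vitamin C and 5.95, 5.80, 5.39, 4.92, 4.92 and 4.88 with it. It fell by 2.74-fold (−1.46 ± 0.18, adjusted p = 0.000373). Nexn (nexilin, an actin-binding protein) fell by 2.20-fold, with an adjusted p of 0.00919 from day 3, and had a difference of −0.27 from day 4 (adjusted p = 0.504). Lmod1 (leiomodin, an actin filament nucleator) fell by 1.96-fold and Smtn (smoothelin) by 1.67-fold. The call of Smtn was lost without any 1 of the 4 arrays of days 3 and 10 (adjusted p between 0.0506 and 0.0574). Npnt, an extracellular matrix ligand of integrins, rose by 0.95 ± 0.25 from day 3 (adjusted p = 0.0266), and differed by 0.11 from day 4 (0.821). Mylk, the kinase of the light chain, differed by 0.07 ± 0.25.

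Against GFP cells on day 3, 5 of these 15 were lower and none higher, with a median of −0.39. Mylk was 6.94 and 6.41 on the GFP arrays and 5.27 on both SKO arrays of day 3 (−1.41 ± 0.25, adjusted p = 0.00165). Aoc3, a cell surface amine oxidase among the genes of lowest signal, was 5.33 and 4.91 on the GFP arrays and 4.04 and 3.86 on the SKO arrays of day 3, so its difference of −1.17 may be understated. Smtn was lower by −1.17 ± 0.15 and kept its call in all 18 alternatives. Myh11 was 6.73 and 7.10 on the GFP arrays, and its difference of −0.88 ± 0.20 (adjusted p = 0.00856) lost its call in 2 of 18 alternatives. Of 18 fibroblast markers 11 were also lower in SKO cells on day 3 and none higher, with a median of −0.73; the part of this in the differences above was not tested.

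**Figure D4:**
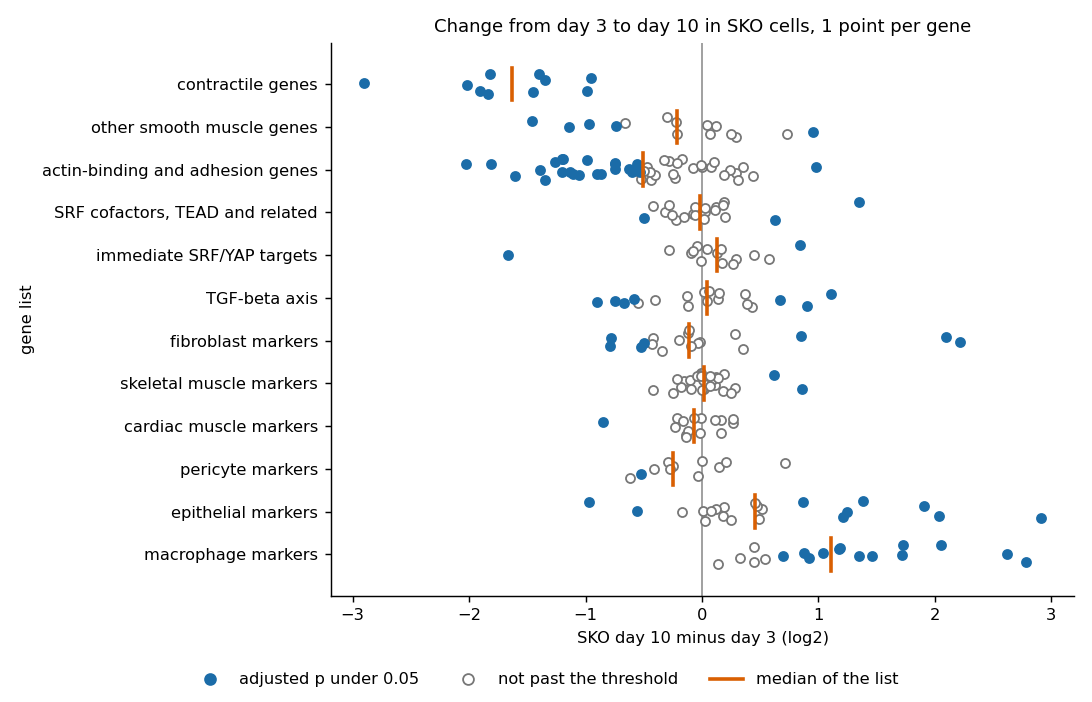
Log2 difference of day 10 minus day 3 in SKO cells for every measured gene of 12 lists, 1 point per gene; filled points have an adjusted p under 0.05 and the bar is the list's median. The contractile genes lie from −2.90 to −0.95, most actin-binding genes lie below 0, and the macrophage markers lie above 0.

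Of 48 measured genes for actin-binding and adhesion proteins, 22 fell and 1 rose from day 3 to day 10, with a median of −0.51. Tspan2, a tetraspanin, fell by 4.08-fold (−2.03 ± 0.14, adjusted p = 8.68e-06). Pdlim1, a scaffold of the actinin cytoskeleton, fell by 3.50-fold, and Flnc (filamin C, an actin cross-linker) by 3.04-fold. In untreated cells Flnc gave 8.67, 8.97, 7.87, 8.10, 8.17 and 7.17 over the 6 days. From day 4 to day 10, 24 fell and 1 rose. Actb, the cytoplasmic beta actin, differed by −0.14 ± 0.20 between days 3 and 10 (adjusted p = 0.74) and lay between 12.35 and 12.95 on the 14 arrays. Actr3, an actin-related protein of the complex that starts branched filaments, fell by 0.63 from day 3 (adjusted p = 0.0272) and differed by −0.33 from day 4 (0.202). Actg1 had no probe of its own and was not analysed here.

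The transcripts of SRF and its cofactors did not pass the test between days 3 and 10. Srf differed by −0.32 ± 0.15 between days 3 and 10 (adjusted p = 0.219), Mrtfa by −0.42 ± 0.19 (0.198), Mrtfb by 0.20 ± 0.15 (0.475) and Myocd by 0.12 ± 0.14 (0.689). Srf gave 7.01, 7.69, 6.54, 7.39, 7.44 and 6.82 without vitamin C and 7.06, 7.65, 6.70, 7.62, 7.37 and 6.61 with it. It was low on days 3, 5 and 10 and high on days 4, 6 and 8 in both arms. The same contrast over days 3 to 6 was called for Srf (0.90 ± 0.12, adjusted p = 0.00336), Mrtfa (0.95 ± 0.15, 0.00455) and Mrtfb (0.53 ± 0.12, 0.0149), and for 7 of the 20 genes of this list. The base day therefore decides the result: from day 4 to day 10 Srf fell by 0.95 (adjusted p = 0.00214) and Mrtfa by 1.13 (0.00285). Of the 20 genes, 2 rose from day 3 to day 10, Foxo4 (1.35 ± 0.25) and Tead4 (0.63), and 1 fell, Prrx1 (−0.50). From day 4, 1 rose and 6 fell.

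The same limit holds against GFP cells. On day 3 Srf was lower in SKO cells by −0.61 ± 0.15 (adjusted p = 0.0147) and Mrtfa by −1.15 ± 0.19 (0.001), and 9 of the 20 genes were lower. With SKO day 4 instead, Srf differed by 0.02 and Mrtfa by −0.44 (adjusted p = 0.22), and 2 genes were lower and 2 higher. Des, by contrast, was called against GFP from either day.

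Myocd, the smooth muscle and cardiac cofactor of SRF, was higher with vitamin C. It gave 4.33, 4.64, 4.33, 4.54, 4.50 and 4.43 without vitamin C on the 6 SKO days and 4.95, 5.38, 4.99, 5.33, 5.33 and 5.08 with it. The arms did not overlap on any pair of days. The difference was 0.72 ± 0.08, or 1.64-fold (adjusted p = 0.00572), and 0.642% of all genes were higher. The untreated values lay near the same 4.54. In GFP cells it was 4.68 with and 4.55 without vitamin C, and the test of GFP against SKO gave −0.59 ± 0.21 (adjusted p = 0.664). In fits of days 3, 5 and 10 alone and of days 4, 6 and 8 alone the difference was 0.64 and 0.79, with adjusted p of 0.55 and 0.061. None of the 10 contractile genes was called for vitamin C, where 0.933% of all genes were called in either direction. Srf (0.02), Mrtfa (0.01) and Mrtfb (0.06) were near 0. A link between Myocd and the contractile genes was not tested.

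**Figure D5:**
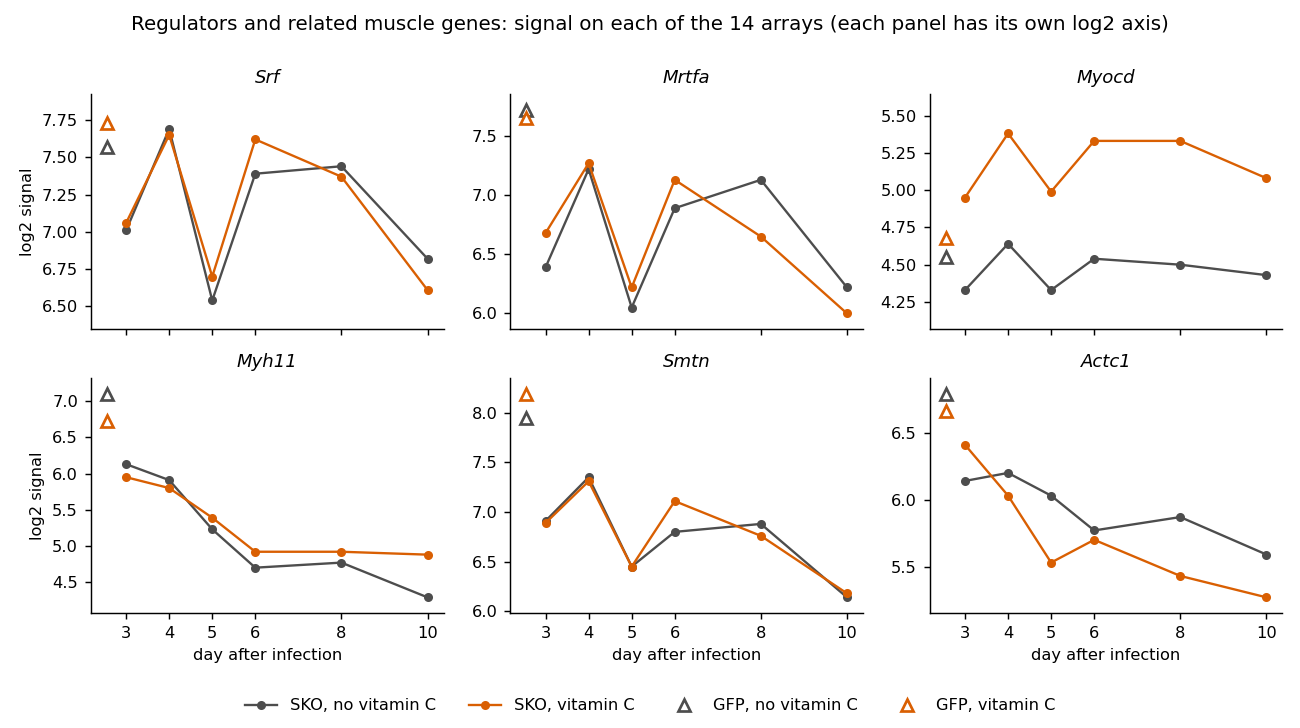
Log2 signal of Srf, Mrtfa, Myocd, Myh11, Smtn and Actc1 against the day after infection, drawn as for the contractile genes. Srf and Mrtfa zigzag between days 3 and 6, Myh11 falls on each step to day 6, and Myocd on the SKO arrays is between 4.95 and 5.38 with vitamin C and between 4.33 and 4.64 without it, with the GFP arrays at 4.68 and 4.55.

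Genes that respond early to SRF or YAP signalling depended on the base day too. Of 15 such targets 1 rose (Fos, 0.84) and 1 fell (Ankrd1, a muscle ankyrin repeat protein, by 3.18-fold, adjusted p = 0.00112) between days 3 and 10, with a median of 0.13. From day 4 none rose and 1 fell, with 12 of 15 below 0 (54.1% of all genes) and a median of −0.21. From day 4 to day 8, 14 of 15 were below 0 (56.4% of all genes), with a median of −0.28. Of 19 TGF-beta genes 3 rose and 4 fell, with a median of 0.04: the receptors Tgfbr2 (1.11) and Tgfbr3 (0.90) rose and the ligand subunit Inhba (−0.90) fell. From day 4, 2 of the 19 rose and 6 fell, with a median of 0.23. With vitamin C, Nr4a1 (−0.54), Tuft1 (−0.51) and the integrin subunit Itgav (−0.46) were lower.

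Markers of other cell types were read on the same arrays. Of 27 skeletal muscle genes 14 were among the genes of lowest signal. The list's mean signal was between 4.30 and 4.59 on the 14 arrays, and Myod1, the master regulator of that lineage, lay between 4.63 and 5.29. From day 3 to day 10, 2 of these genes rose (Actn3 and Myh1) and none fell. Of 15 cardiac genes, only Actc1, the cardiac alpha actin, fell (1.80-fold, adjusted p = 0.0117), and the list's mean was between 4.72 and 4.94. Of 11 pericyte genes 1 fell, Abcc9.

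Fibroblast, epithelial and macrophage markers moved as well. Of 18 fibroblast genes 4 fell, Prrx1 among them, and 3 rose (Lum, 2.22, Dcn, 2.10, and Pdgfra, 0.85) from day 3 to day 10. In all, 13 of the 18 were below 0, with a median of −0.12. From day 4 to day 10, 6 fell and 3 rose, with a median of −0.22. Between days 3 and 10, 7 of 21 epithelial genes rose, with Epcam up by 7.51-fold, and 2 fell. Of 18 macrophage genes 13 rose, with a median of 1.11. Mrc1, a macrophage lectin, rose by 6.85-fold and Lyz2, lysozyme, by 6.16-fold. Their mean signal was 4.55 and 4.65 on day 3 and 5.84 and 5.76 on day 10, without and with vitamin C, and 5.03 and 4.76 in GFP cells with and without it. The part of these cells in the fall of the contractile genes was not tested.

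The members moved much alike. Over the 12 SKO arrays, Acta1 correlated with the mean of the other 9 members at r = 0.993, Cnn1 and Tpm2 at 0.972, Acta2 at 0.970, Tagln at 0.964, Tpm1 at 0.955 and Myl9 at 0.926. Des (0.881), Actg2 (0.839) and Cald1 (0.825) stood further off. The arrays share the trend over days, so these values describe the course and are no test. Outside the set, the genes closest to its mean course were Ccng1 (cyclin G1, r = 0.982), Specc1 (0.973), Flna (filamin A, 0.967), Pdlim1 (0.963), Mfge8 (0.962), Tnfrsf10b (0.961), Polr1a (0.960) and Cnn2 (calponin 2, 0.959). From day 3 to day 10 these differed by −1.81 (Pdlim1) to −0.58 (Polr1a).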

How the data were processed

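RNA of the 14 samples was hybridised to Affymetrix whole-transcript arrays. It was extracted with Trizol and 100 ng were labelled, per the labels' protocols. The authors deposited 1 normalized value for each probe on each array, made with RMA and Partek per the submitters' processing notes. Their versions and the genome build were not stated there. The range of the deposited values (0.72 to 14.09) is that of log2 signals, and they were used as such. RMA compresses weak signals, so folds of weak genes can be understated.

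The platform annotation gave 1 gene symbol for 21789 of 28853 probes, several for 1621 and none for 5443. Entrez identifiers led to current RefSeq symbols for 19856 genes. Each of the 19938 genes was represented by its probe of highest mean (999 genes had a choice).

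Differences were tested with limma 3.58.1 (lmFit and eBayes, R 4.3.3), and p-values were adjusted over all 19938 genes by Benjamini-Hochberg; the threshold was 0.05. Day and vitamin C contrasts used the 12 SKO arrays with both as terms (5 residual degrees of freedom, 4 for the slope), and SKO against GFP all 14 arrays (6). The labels pair the arrays by day, and deviations from each arm's mean correlated within the pairs at r between 0.248 (day 6) and 0.677 (day 3). The scripts were tested on simulated data.

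The members and lists were chosen with earlier results of these data known. Named are all members, Srf, Mrtfa, Mrtfb, Myocd and Actb, per list and comparison up to 3 called genes of largest difference, and the 8 genes most alike by Pearson r. Other genes were named after their values were seen. Alternatives were other normalizations, filters, variance models, array weights and sets of days, and leaving out a day or array where the comparison allowed it. Python 3.11.15 with matplotlib 3.10.9 drew the figures.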

Additional observations from a re-analysis of the deposited data

How the results depend on the processing

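All 10 genes stayed lower on day 10 in each of 17 alternatives to the comparison with day 3 (170 of 170 values below 0). In 1 of these, day 4 was the base in place of day 3. Days 3 and 10 could not themselves be left out. The vitamin C count was 0 in each of its alternatives, also without pairing the arrays by day (no replicate block, 0 calls). The number of genes lower in SKO than in GFP cells was 2 as reported. It was 4 without the 6646 genes of lowest signal, 4 with an intensity trend, 4 from the 4 arrays of day 3 alone and 4 with SKO day 4, and 1 to 4 when each day or array was left out. Between days 5 and 10 the count of 4 became 7 without those genes, 7 with an intensity trend and 8 with array weights. Between days 4 and 8 array weights took it from 7 to 4, and the test over days called 3 of 10 on days 4, 6 and 8 only. The cause of these shifts was not tested, except that fewer arrays or genes entered some of them.

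Small differences turned sign. For vitamin C, Acta2 gave 0.00 after quantile normalization, 0.03 on days 3, 5 and 10, and −0.14 to 0.03 when each day was left out; Acta1 gave 0.07 on days 4, 6 and 8, and −0.12 to 0.04. Tagln gave −0.02 with array weights and −0.07 to 0.11, and Cnn1 −0.20 to 0.05, when each day was left out. SKO day 4 against GFP turned Actg2 (0.27), Cald1 (−0.21) and Srf (0.02); leaving out arrays or days gave −0.34 to 0.13 for Actg2, −0.05 to 0.17 for Cald1 and −0.68 to −0.54 for Srf. Of 125 counts over alternatives 111 kept within 1.5 times their value, and of 660 values of single genes 614 kept their direction and side of the threshold. With 1 array per condition and day, the number of arrays limits the precision.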
